A study of Mus musculus with 2 samples.

Results

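*Sst*, *Npy*, *Vip*, *Cck*, *Penk*, *Pdyn*, *Tac1*, *Crh* and *Cort* each encode the precursor of 1 or more neuropeptides. They were taken by gene symbol, with earlier results of these data known, and are 9 of the 55450 genes listed in the count tables. Their unique molecular identifiers (UMIs, 1 per captured RNA molecule) were followed through interneurons, excitatory neurons and striatal neurons of mouse cerebral cortex, with glial cells as the background. The series holds 2 single-cell libraries made on the 10x droplet platform, 1 labelled Control and 1 labelled WMI, for a model of white matter injury of preterm birth.

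The labels describe C57BL/6 mice that were 2 weeks old. In the WMI group the right common carotid artery was tied off on postnatal day 7 and the pups then breathed low oxygen for 1 h, and tissue was taken on day 14 from the cortex of the ligated side. In the labels the Control library came from the cortex of the same side. The study's results instead speak of cortex from a control side and a WMI side, and a figure legend there names sham and WMI hemispheres. Both samples carry the same treatment text in the labels, so what the control mice underwent is not given there. The study's methods describe an earlier day of surgery, a longer hypoxia and enzymatically dissociated cells, where the labels give nuclei. An earlier day of sampling is given in the study's results. Neither version is assumed here. The methods also speak of several replicates per group, whereas 1 library per group was analysed, and whether a library pools several mice is not given in the sources used here.

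Neuropeptides are cut from larger precursors in the secretory pathway, stored in dense-core vesicles and released alongside a fast transmitter, to act on G protein-coupled receptors. In cortex most of these genes mark classes of GABAergic interneuron. Somatostatin (*Sst*) and its close relative cortistatin (*Cort*) belong to interneurons born in the medial ganglionic eminence (MGE), and vasoactive intestinal peptide (*Vip*) to interneurons born in the caudal ganglionic eminence (CGE). Neuropeptide Y (*Npy*) occurs in several interneuron types. Cholecystokinin (*Cck*) is made both by a class of CGE interneurons and by many excitatory neurons. Proenkephalin (*Penk*) and prodynorphin (*Pdyn*) are opioid precursors. *Tac1* encodes substance P and neurokinin A, and *Crh* encodes corticotropin-releasing hormone. In the striatum, which lies below the cortex, *Penk* belongs to projection neurons of the indirect pathway, and *Tac1* and *Pdyn* to those of the direct pathway.

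The ends of the *Sst* and *Cort* coding sequences are shown because these genes encode peptides with a common core, so that the likeness of the measured RNAs can be seen. Each line gives 42 bases of the coding strand, 5′ to 3′, from GENCODE M21 transcripts on GRCm38. The *Sst* stretch closes the coding sequence before the stop codon and the *Cort* stretch ends 3 bases earlier. Capitals mark bases that are identical in both.
*Sst*: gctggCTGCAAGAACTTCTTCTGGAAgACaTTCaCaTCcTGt
*Cort*: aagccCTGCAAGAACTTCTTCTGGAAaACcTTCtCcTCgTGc
Of the 42 bases 31 were identical (73.8%), with the longest shared run at 21 bases. Whether any reads were counted for the wrong gene of the pair was not tested. The opioid core was read in frame 7 times in the *Penk* coding sequence of 804 bases and 3 times in the *Pdyn* coding sequence of 744 bases. It was not found in frame in the coding sequences of the other members.

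Peptide genes are known as targets of the cyclic AMP response element (CRE), so the stretch before the start of transcription is shown for *Sst*, *Vip* and *Cort*, each the marker of an interneuron class. The sequences are the 250 bases upstream of the RefSeq start on GRCm38.p6, read 5′ to 3′ along the gene. Capitals mark the full element TGACGTCA or, where only that is present, its short form TGACG or CGTCA.
*Sst* (chr16:23890845-23891094, minus strand): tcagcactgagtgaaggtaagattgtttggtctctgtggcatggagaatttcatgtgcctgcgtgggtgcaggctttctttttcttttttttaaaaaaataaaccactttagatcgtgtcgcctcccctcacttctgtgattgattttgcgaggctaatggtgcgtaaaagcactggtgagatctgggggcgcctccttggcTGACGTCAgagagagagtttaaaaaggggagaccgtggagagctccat
*Vip* (chr10:5638968-5639217, plus strand): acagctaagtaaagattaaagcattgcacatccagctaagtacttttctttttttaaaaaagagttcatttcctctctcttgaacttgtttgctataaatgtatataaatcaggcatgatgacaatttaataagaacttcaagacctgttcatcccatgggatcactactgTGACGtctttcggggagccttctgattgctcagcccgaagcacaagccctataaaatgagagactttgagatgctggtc
*Cort* (chr4:149126764-149127013, minus strand): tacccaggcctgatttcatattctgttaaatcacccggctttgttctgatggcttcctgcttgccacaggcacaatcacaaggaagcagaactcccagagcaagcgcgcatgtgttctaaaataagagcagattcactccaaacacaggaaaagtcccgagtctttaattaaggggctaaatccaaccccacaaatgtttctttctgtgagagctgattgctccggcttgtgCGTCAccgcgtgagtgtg
The first match began 48 bases before the start in *Sst*, 79 in *Vip* and 18 in *Cort*. Windows of 300 bases (250 before the start and 50 after it) were at hand for 7 of the 9 genes. The short form, searched on both strands, occurred in 5 of those 7 genes and in 20.8% of all 32851 windows. The full element, which holds both short forms in overlap, occurred in 1 of the 7, *Sst*, and in 1.79% of all windows. Matches of letters describe these windows and do not show binding.

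The Control library held 10288 barcodes with 66470806 UMIs and the WMI library 8354 barcodes with 60568639 UMIs. After cells with few UMIs, few genes or much mitochondrial RNA and likely doublets were left out, 8755 Control cells (median 4202 UMIs) and 7571 WMI cells (median 4973 UMIs) were analysed. The libraries stood apart in mitochondrial RNA, whose median share was 0.0619% of a cell's UMIs in Control and 0.448% in WMI. They also stood apart in cell makeup, since 6 of 31 clusters drew at least 90% of their cells from 1 library. Barcodes in common accounted for 29 of the kept cells. Cells were clustered without the 9 genes, and named from markers that did not include them. Of the interneuron-like cells 460 were Control and 374 WMI. All intervals below are 95% intervals that cover counting error only. They are exact, except that intervals of a difference between shares were made from the limits of both shares. With 1 library per group there is no replicate check, so no test was made and no p-value is given.

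Over all barcodes the 9 genes made up 12720 UMIs in Control (0.019% of all UMIs) and 13944 in WMI (0.023%). *Cck* had 5168 UMIs in Control and 6481 in WMI. *Sst* had 3505 and 3081, *Npy* 1811 and 1932, and *Vip* 939 and 870. The other members were sparser, with *Cort* at 540 and 352, *Tac1* at 247 and 367, *Pdyn* at 226 and 174, *Penk* at 142 and 561, and *Crh* at 142 and 126. As a ratio of totals, *Penk* differed most between the libraries.

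On GRCm38, in the GENCODE M21 annotation, each of the 9 is a protein-coding gene whose UMIs were counted over the gene. *Sst* is at chr16:23889573-23890958 and *Cort* at chr4:149125034-149126763, both on the minus strand. *Npy* is at chr6:49822710-49829507 and *Tac1* at chr6:7554879-7565834, on the plus strand of the same chromosome, and *Vip* is at chr10:5639218-5647617 on the plus strand. *Cck* (chr9:121489824-121495694), *Pdyn* (chr2:129686565-129699844), *Crh* (chr3:19693401-19695396) and *Penk* (chr4:4133531-4138819) are on the minus strand. *Penk* alone overlaps another gene, *A830012C17Rik* on the plus strand, and whether the counting used strand is not given in the sources used here.

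Glia-like cells, which should lack most of these peptides, served as the background. They averaged 0.219 *Sst* UMIs per cell in Control and 0.191 in WMI. *Npy* averaged 0.137 and 0.128 UMIs per glia-like cell, *Cck* 0.359 and 0.405, and *Vip* 0.062 and 0.046. *Penk* averaged 0.006 and 0.032, and the remaining 4 genes lay between 0.006 and 0.030. Glia-like cells were shallower (median 4369 UMIs in Control and 4539 in WMI) than interneuron-like cells (9363.5 and 8418.5). Levels of *Sst*, *Npy*, *Vip* and *Cck* near these values were read as background. Levels are given below as CPM, the UMIs of a gene per 1000000 UMIs of the same cells.

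**Figure D1:**
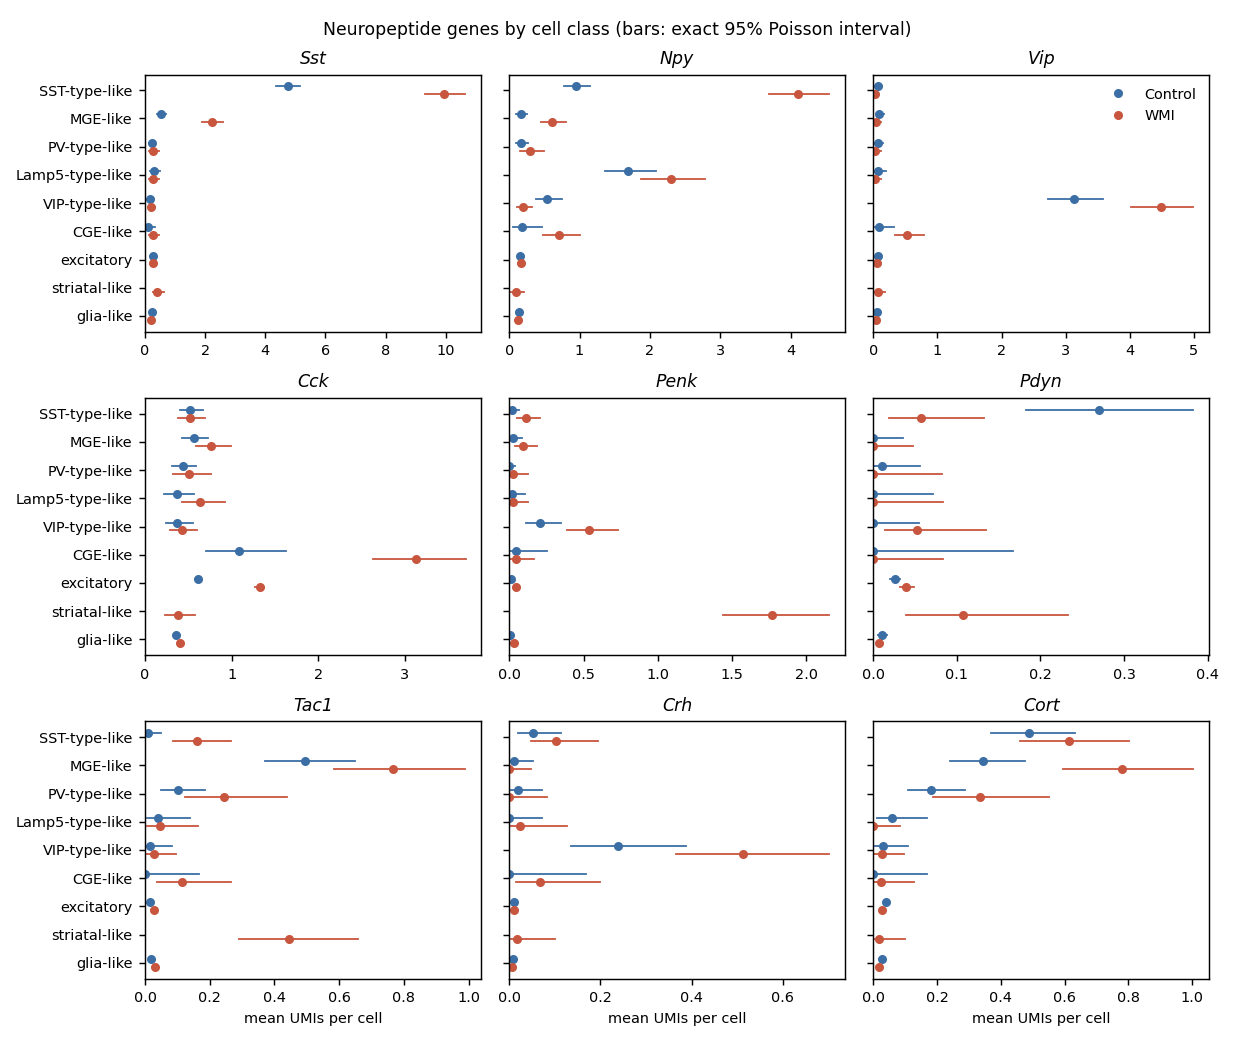
Mean UMIs per cell (linear axis, 1 scale per gene) of each of the 9 neuropeptide genes in interneuron subtypes, excitatory neuron-like clusters drawn from both libraries, striatal-like cells and glia-like cells, with 1 point per library and bars for exact 95% Poisson intervals. *Sst* stood highest in SST-type-like cells (4.74 in Control and 9.95 in WMI), *Vip* in VIP-type-like cells, *Cck* in CGE-like cells and *Penk* in striatal-like cells, which came from the WMI library alone (1.77).

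*Sst*, whose peptide inhibits release from other neurons, was highest in SST-type-like interneurons. These cells were named from *Elfn1*, *Grin3a*, *Crhbp*, *Satb1* and *Synpr* among other markers, and numbered 115 in Control and 88 in WMI. Their *Sst* level was 461 CPM (interval 423 to 502) in Control and 1021 CPM (955 to 1091) in WMI, or 4.74 and 9.95 UMIs per cell. MGE-like cells held the next level, 52.3 CPM in Control and 263 CPM in WMI, or 0.533 and 2.22 UMIs per cell. PV-type-like cells, of the fast-spiking class marked by parvalbumin, had 21.1 and 22.9 CPM, below the 44.8 and 37.1 CPM of glia-like cells. Lamp5-type-like cells at 36.6 and 26.6 CPM and VIP-type-like cells at 19.2 and 24.4 CPM lay in the same range. *Sst* thus stood far above background in SST-type-like cells and above it in WMI MGE-like cells. In Control MGE-like cells it did not stand above background in CPM, since the interval (39.5 to 67.9) included the glial level and the 63.0 CPM of microglia-like cells.

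Single cells showed how the *Sst* difference was spread. In Control SST-type-like cells the quartiles of *Sst* were 1, 2 and 6 UMIs with a highest cell of 41, and 24 of 115 cells held none. In WMI the quartiles were 3, 7 and 12 with a highest cell of 51, and 10 of 88 cells held none. Cells with at least 10 UMIs numbered 18 in Control and 31 in WMI. The distributions overlapped widely, with the WMI cells shifted upward through the middle of the range. Among MGE-like cells *Sst* was found in 36 of 105 Control cells (highest 12 UMIs) and 38 of 77 WMI cells (highest 32), and in WMI the top 5 cells held 49.1% of the UMIs.

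**Figure D2:**
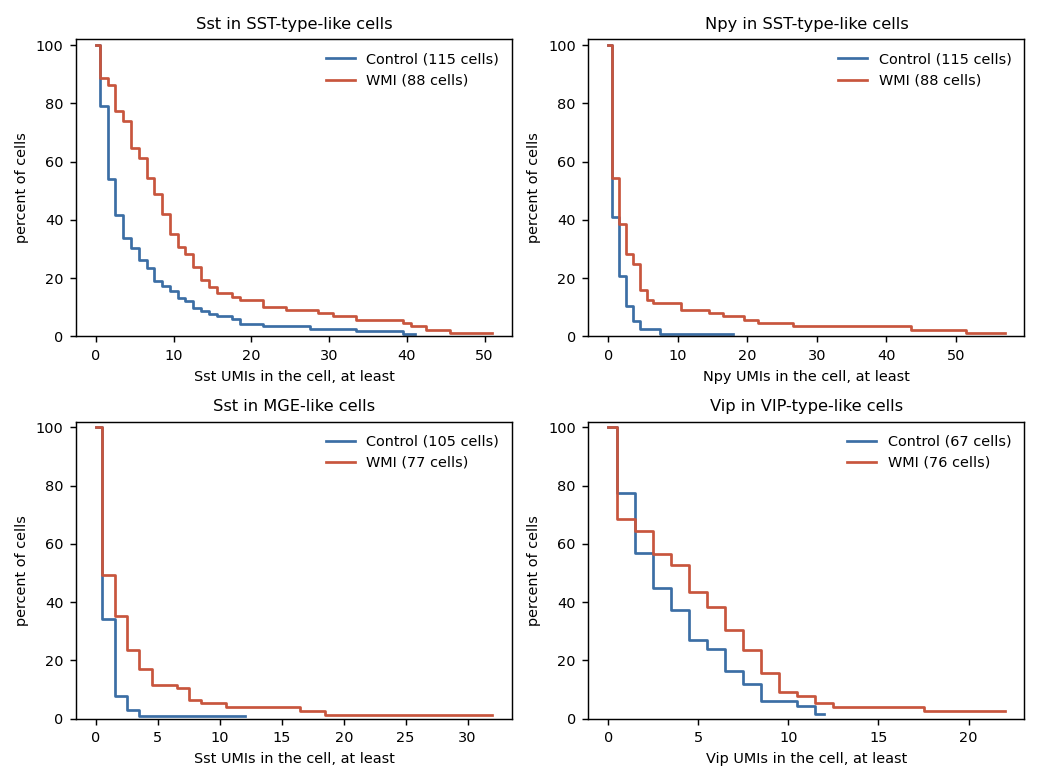
Percent of cells (vertical axis) that held at least the number of UMIs on the horizontal axis, 1 step line per library, for *Sst* and *Npy* in SST-type-like cells, *Sst* in MGE-like cells and *Vip* in VIP-type-like cells. The WMI line lay above the Control line for *Sst* and *Npy* and ended further right (51 against 41 UMIs for *Sst* in SST-type-like cells), while for *Vip* the lines crossed, with 52 of 76 WMI cells and 52 of 67 Control cells above 0.

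The 2 libraries differed in *Sst* by a log2 ratio (WMI over Control, of CPM) of 1.15 (0.99 to 1.30) in SST-type-like cells and 2.33 (1.89 to 2.79) in MGE-like cells. SST-type-like cells fell into 2 sub-clusters, and both gave a like ratio, with 341 and 765 CPM (1.17) in 1 and 623 and 1419 CPM (1.19) in the other. A log2 ratio of at least 1 either way was counted as called, and it was given only where both libraries together held 20 UMIs of the gene. In SST-type-like cells 4.24% of 9009 measured genes were called higher in WMI and 2.63% lower. Beside this, median depth in SST-type-like cells was 9495 UMIs in Control and 8207 in WMI, and median mitochondrial share was 0.0570% and 0.245%. The summed level of the SST-type marker list was 5401 CPM in Control and 4794 in WMI, in the opposite direction to *Sst*. By sub-cluster this held for the first alone (4458 and 3405 CPM). In the second the sum was 6661 CPM in Control and 6951 in WMI, the same direction as *Sst*. The part of mitochondrial share in the result was not tested.

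*Cort*, whose peptide binds somatostatin receptors, was found in the MGE-derived types, highest in SST-type-like cells in Control and in MGE-like cells in WMI. The intervals of these 2 types overlapped in each library, so their order was not separated. SST-type-like cells held 56 *Cort* UMIs in Control and 54 in WMI, and MGE-like cells 36 and 60. In SST-type-like cells the *Cort* level was 47.4 CPM in Control and 62.9 CPM in WMI (log2 0.41, −0.16 to 0.97). The SST-type-like sub-clusters went opposite ways. In the first, led by *Lama4* and *Olfm3*, *Cort* was at 37.0 CPM in Control and 15.3 in WMI (log2 −1.27, −2.63 to −0.08). In the second, led by *Lypd6* and *Trhde*, it was at 61.3 and 137 CPM (1.16, 0.47 to 1.87). Few cells carried these levels, with *Cort* in 14 of 68 Control and 4 of 56 WMI cells of the first. In the second it was in 11 of 47 and 13 of 32 cells, and the top 5 cells held 80.6% and 76.1% of its UMIs. MGE-like cells had 33.6 and 92.3 CPM (1.46, 0.84 to 2.10). In MGE-like cells 3.48% of 8423 measured genes were called higher and 3.21% lower, and the summed MGE marker list was 9468 CPM in Control and 10890 in WMI. PV-type-like cells, also of MGE origin, had 17.3 and 28.6 CPM (0.73, −0.36 to 1.80), against 5.27 and 3.59 CPM in glia-like cells. Outside the MGE-derived types *Cort* was at 0 to 3 UMIs per subtype and library.

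*Npy*, a peptide that dampens excitatory release, was found in several interneuron types. In Lamp5-type-like cells, which include the neurogliaform type, it was at 201 CPM (161 to 248) in Control and 244 CPM (199 to 297) in WMI. Their log2 ratio of 0.28 (−0.15 to 0.71) did not separate the libraries at this depth. In SST-type-like cells the level was 92.3 CPM in Control and 421 CPM in WMI, a log2 ratio of 2.19 (1.88 to 2.51), or 0.948 and 4.10 UMIs per cell. In MGE-like cells it was 15.9 and 72.3 CPM (2.19, 1.36 to 3.08), and Control was under the 28.0 CPM of glia-like cells. The order of *Npy* levels therefore differed by library, with Lamp5-type-like cells highest in Control and SST-type-like cells highest in WMI.

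The *Npy* difference in SST-type-like cells was uneven, and a few cells held much of the WMI total. *Npy* was found in 47 of 115 Control cells (40.9%) and 48 of 88 WMI cells (54.5%), with upper quartiles of 1 and 3.25 UMIs. The median was 0 UMIs in Control with a highest cell of 18, and 1 UMI in WMI with a highest cell of 57. Cells with at least 10 UMIs numbered 1 and 10, and in WMI the top 5 cells held 54.8% of all *Npy* UMIs of the class. Most of it came from the first sub-cluster, with 77.0 CPM in Control and 531 CPM in WMI (log2 2.79). The second had 113 and 250 CPM (1.15), and *Npy* was found there in 20 of 47 Control cells and 13 of 32 WMI cells. In the first it was found in 27 of 68 and 35 of 56 cells. The top 5 cells held 77.4% of the WMI UMIs in the second and 67.9% in the first. CGE-like cells held 4 *Npy* UMIs in Control and 31 in WMI. VIP-type-like cells went the other way, with 57.7 CPM in Control and 22.8 in WMI (−1.34, −2.31 to −0.43), from 36 and 15 UMIs. A few Control cells carried this, as the top 5 held 77.8% of the Control UMIs, and *Npy* was found in 13 of 67 Control cells (19.4%) and 12 of 76 WMI cells (15.8%). In VIP-type-like cells 4.49% of 7169 measured genes were called higher and 3.08% lower.

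*Pdyn*, the dynorphin precursor, was the member that stood lower in WMI interneurons. Of its 32 Control UMIs in interneuron-like cells 31 lay in SST-type-like cells. These cells had 26.2 CPM in Control (31 UMIs in 23 of 115 cells) and 5.83 CPM in WMI (5 UMIs in 4 of 88 cells), a log2 ratio of −2.17 (−3.89 to −0.80). VIP-type-like cells held no *Pdyn* UMI in 67 Control cells and 4 UMIs in 4 of 76 WMI cells. MGE-like, Lamp5-type-like and CGE-like cells held no *Pdyn* UMI in either library. For MGE-like cells this allows at most 3.44 CPM in Control and 5.68 CPM in WMI.

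*Vip*, whose peptide belongs to interneurons that chiefly inhibit other interneurons, was highest in VIP-type-like cells. They numbered 67 in Control and 76 in WMI and were named from *Calb2*, *Htr3a*, *Igf1*, *Chat*, *Npas1* and *Tac2*. The *Vip* level was 337 CPM (293 to 385) in Control and 519 CPM (466 to 578) in WMI, a log2 ratio of 0.63 (0.37 to 0.88). Cells with *Vip* were 52 of 67 in Control (median 2 UMIs, highest 12) and 52 of 76 in WMI (median 4, highest 22). So over the class as a whole a smaller share of the WMI cells held more UMIs each. The 2 sub-clusters differed in direction, with 359 and 254 CPM (−0.50, −0.93 to −0.07) in the one led by *Sntb1* and *Bcar3*. The one led by *Wnt5b*, *Cp* and *Chat* had 313 and 754 CPM (1.27, 0.92 to 1.62). Cells with *Vip* were 28 of 36 in Control and 16 of 38 in WMI in the *Sntb1*-led sub-cluster. In the *Wnt5b*-led one they were 24 of 31 and 36 of 38, a larger share in WMI. CGE-like cells, with *Cnr1* among their leading genes, had 2 *Vip* UMIs in Control and 23 in WMI.

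*Crh* and *Penk* shared the VIP-type-like cells with *Vip*. *Crh*, the stress hormone precursor, was at 25.7 CPM in Control (16 UMIs) and 59.4 CPM in WMI (39 UMIs), a log2 ratio of 1.21 (0.34 to 2.15). Of all *Crh* UMIs in the kept cells 21.2% in Control and 47.3% in WMI lay in interneuron-like cells, which were 5.25% and 4.94% of the cells. These shares also move with cell makeup. Excitatory neuron-like cells were 73.4% of the Control and 31.1% of the WMI cells, and held 77 and 25 *Crh* UMIs. *Penk* was at 22.4 CPM (14 UMIs) and 62.4 CPM (41 UMIs), a log2 ratio of 1.48 (0.57 to 2.47). Its WMI UMIs lay mostly in the *Wnt5b*-led sub-cluster, at 26.6 and 106 CPM (1.99, 0.87 to 3.31), where *Crh* was at 16.7 and 57.3 CPM (1.78, 0.33 to 3.55). In that sub-cluster *Penk* was found in 6 of 31 Control cells and 20 of 38 WMI cells. *Crh* there was in 3 of 31 and 6 of 38 cells, and 5 cells held 95% of its WMI UMIs. In the *Sntb1*-led sub-cluster *Penk* was found in 6 of 36 Control cells and 3 of 38 WMI cells, the other direction. *Crh* was found in 8 of 36 and 11 of 38 cells of the *Sntb1*-led sub-cluster, more cells than in the *Wnt5b*-led one. The median mitochondrial share of VIP-type-like cells was 0.0757% in Control and 0.324% in WMI, and the summed level of the VIP-type marker list was 651 and 835 CPM. By sub-cluster this sum, which leaves out *Vip*, moved in the same direction as *Vip*. It was 550 CPM in Control and 1089 in WMI in the *Wnt5b*-led sub-cluster, and 745 and 546 CPM in the *Sntb1*-led one. Their part in these ratios was not tested.

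*Tac1*, the substance P precursor, was found in MGE-like cells at 48.6 CPM in Control and 90.8 CPM in WMI (log2 0.90, 0.34 to 1.47). In PV-type-like cells it was at 9.59 and 20.99 CPM from 10 and 11 UMIs (1.13, −0.25 to 2.52). SST-type-like cells held 1 *Tac1* UMI in Control and 14 in WMI, too few for a ratio. No member had an interval off 0 in PV-type-like cells, where *Sst*, *Npy*, *Cck*, *Tac1* and *Cort* reached the 20 UMIs needed. In PV-type-like cells 2.99% of 7828 measured genes were called higher and 5.44% lower.

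*Cck* among interneuron subtypes was highest in CGE-like cells, which numbered 22 in Control and 44 in WMI. They held 24 of the 230 *Cck* UMIs of interneuron-like cells in Control and 138 of the 326 in WMI. Their level was 111 CPM (71.2 to 165) in Control and 320 CPM (269 to 378) in WMI, a log2 ratio of 1.53 (0.89 to 2.22). *Cck* was found in 12 of 22 Control cells (median 1 UMI) and 33 of 44 WMI cells (median 2). In CGE-like cells, the subtype with the fewest cells, 8.3% of 4677 measured genes were called higher and 3.76% lower. The summed CGE marker list there was 30228 CPM in Control and 26334 in WMI. In the other 5 subtypes *Cck* lay between 40.1 and 90.8 CPM in both libraries, against 73.5 and 78.8 CPM in glia-like cells. In CPM only CGE-like cells were clear of that background in WMI, and in Control their interval included the glial level. Glia-like cells were shallower, so the comparison depends on the scale. Per cell, WMI glia-like cells held 0.405 *Cck* UMIs. Beside this, WMI cells of the other subtypes held 59 UMIs in 77 MGE-like cells and 28 in 44 Lamp5-type-like cells. They held 23 in 45 PV-type-like, 46 in 88 SST-type-like and 32 in 76 VIP-type-like cells.

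Summed over all interneuron-like cells, 8 of the 9 genes were higher in WMI and *Pdyn* was lower. *Sst* was at 143 CPM (132 to 154) in Control and 310 CPM (292 to 329) in WMI, a log2 ratio of 1.12 (0.98 to 1.26). *Npy* was at 59.1 and 161 CPM (1.44, 1.23 to 1.66). *Vip* was at 52.5 and 105 CPM (1.00, 0.76 to 1.24). These are the members with the most UMIs and the narrowest intervals. *Penk* at 4.59 and 17.5 CPM (1.93, 1.20 to 2.72) and *Crh* at 5.47 and 14.7 CPM (1.43, 0.71 to 2.18) had larger ratios from fewer UMIs. *Penk* was also higher in WMI in glia-like cells, at 0.006 UMIs per cell in Control and 0.032 in WMI. Of its interneuron-like UMIs 14 of 21 in Control and 41 of 62 in WMI lay in VIP-type-like cells. The part of background in the *Penk* ratio was not tested. *Cck* at 50.3 and 92.3 CPM (0.87), *Tac1* at 14.4 and 26.3 CPM (0.87) and *Cort* at 25.2 and 37.4 CPM (0.57) were higher by less. For *Cck* 24 of the 230 Control UMIs and 138 of the 326 WMI UMIs lay in CGE-like cells, which numbered 22 and 44. In CPM no other subtype was clear of the glial *Cck* level in WMI. *Pdyn* was at 7.00 and 2.55 CPM (−1.46, −2.71 to −0.36).

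By the limit of 1, 5 of the 9 were called higher (*Sst*, *Npy*, *Vip*, *Penk* and *Crh*) and 1 was called lower. Among all 13895 genes measured in these cells 3.71% were called higher and 2.6% lower, 6.3% either way. The median log2 ratio was 1.00 over the members and −0.00 over all genes. These genes are short, and among 2727 other protein-coding genes spanning the same range of gene lengths (1386 to 13280 bases) the median was 0.07 with quartiles of −0.24 and 0.37. Of those, 5.06% reached a log2 ratio of 1. Beside these ratios, the median depth of interneuron-like cells was 9363.5 UMIs in Control and 8418.5 in WMI, their mitochondrial share 0.0610% and 0.331%, and their ribosomal protein share 0.170% and 0.220%. The part of these in the ratios was not tested. The subtypes took different shares of the class in each library. With equal weight to each subtype the log2 ratio of *Npy* was 1.17 and that of *Vip* 0.58.

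**Figure D3:**
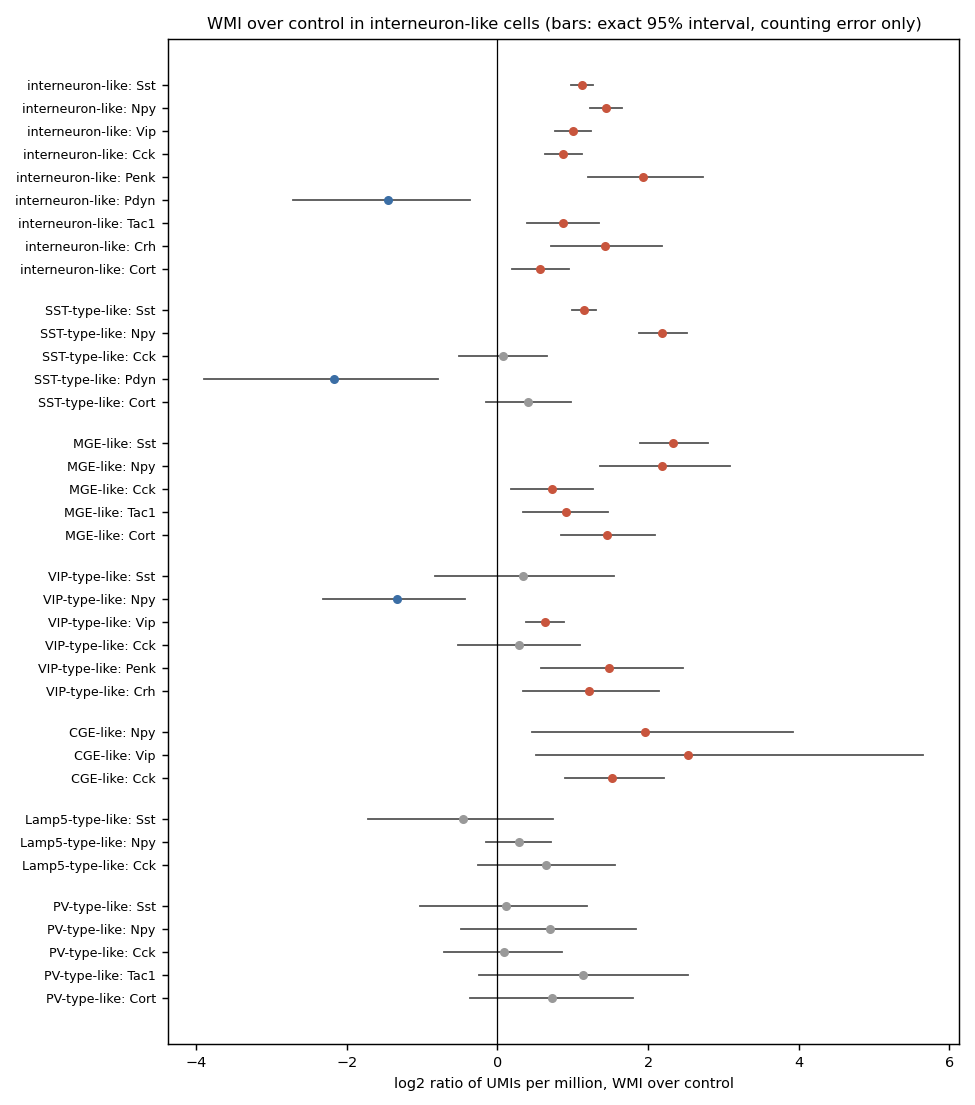
Log2 ratio of WMI over Control (CPM) for the 9 genes in all interneuron-like cells and by subtype, with bars for exact 95% intervals of counting error. Red and blue points have intervals above and below 0 and grey points have intervals that include it. In the whole class 8 points lay above 0 and *Pdyn* lay at −1.46, and genes under 20 UMIs in a subtype are not drawn.

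To compare shares of cells at 1 depth, each cell was thinned to 1000 UMIs, which left out none of the interneuron-like cells. A thinned share moves with the UMIs per cell as well as with the number of cells that hold the gene. *Sst* was then found in 11.7% of Control and 21.1% of WMI interneuron-like cells, a difference of 9.38 percentage points (4.18 to 14.7). Thinned glia-like cells held it in 5.55% and 4.71%, and unthinned interneuron-like cells in 37.8% and 42.2%, a difference of 4.42 points whose interval (−2.42 to 11.3) included 0. *Npy* was in 4.78% and 11.2% (difference 6.45, 2.61 to 10.5), with 3.32% and 2.50% of glia-like cells and 26.1% and 34.8% without thinning (8.67, 2.23 to 15.1). *Vip* was in 5% and 7.49% (2.49, −0.95 to 6.12), with 1.02% and 1.07% of glia-like cells. The share thus separated the libraries with and without thinning for *Npy*, with thinning alone for *Sst*, and in neither case for *Vip*, whose unthinned shares were 17.8% and 17.6%. *Cck* was in 4.35% and 8.56% of the interneuron-like cells and in 7.85% and 9.54% of glia-like cells, so its share in the whole class was read as background. Thinned *Penk* was in 0 of 460 Control cells and in 1.87% of WMI cells, with 0.07% and 0.72% of glia-like cells. By a limit of 3 cells, the count of 0 allows a share of up to 0.652% of cells with a UMI at the thinned depth, and without thinning *Penk* was in 4.13% of Control and 9.89% of WMI cells. The other 4 genes were in at most 3.26% of cells in either library.

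Overlap within cells was counted on the same thinned UMIs. Of *Sst*-positive interneuron-like cells 3 of 54 (5.56%, 1.16 to 15.4) in Control and 18 of 79 (22.8%, 14.1 to 33.6) in WMI also held *Npy*. In *Sst*-negative cells *Npy* was in 4.68% and 8.14%. Read the other way, 3 of 22 *Npy*-positive Control cells and 18 of 42 in WMI (42.9%) held *Sst*. With at least 3 unthinned UMIs as the bar, *Npy* was in 9 of 51 Control cells with *Sst* (17.6%) and 27 of 86 in WMI (31.4%). *Cort* was in 9 of 54 *Sst*-positive cells (16.7%) in Control and 7 of 79 (8.86%) in WMI. That direction turned without thinning (17.2% and 22.8%) and with at least 3 UMIs (9.80% and 11.6%), so no direction is read from it. *Penk* was counted with *Vip* on unthinned UMIs, since no thinned Control cell held it. It was in 9 of 82 *Vip*-positive Control cells (11%) and 22 of 66 in WMI (33.3%), against 2.65% and 4.87% of *Vip*-negative cells.

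Excitatory neuron-like cells formed 13 clusters. A pair of these was shallow and came almost wholly from the Control library (3553 Control and 182 WMI cells), so the 11 others, with 2874 Control and 2170 WMI cells, are described first. *Cck* was at 56.0 CPM (1755 UMIs) in Control and 115 CPM (2873 UMIs) in WMI, a log2 ratio of 1.04 (0.96 to 1.13), or 0.611 and 1.32 UMIs per cell. In glia-like cells the ratio was 0.10 (−0.06 to 0.27). *Cck* was higher in WMI in 11 of 11 clusters, with an interval above 0 in 7 and a log2 ratio of at least 1 in 3. These were the upper-layer cluster led by *Klhl1* and *Ccbe1* (47.4 and 118 CPM, 1.31), the cluster with *Rorb* and other layer 4 genes (57.1 and 132 CPM, 1.21) and a *Tshz2*-led cluster (98.8 and 255 CPM, 1.37). The lowest ratio, 0.24, was that of the near-projecting cluster. Layer 6 corticothalamic cells lay between, at 45.4 and 69.0 CPM (0.60). The Control levels of most clusters (median 51.1 CPM) were below that of glia-like cells, and per cell they ran from 0.440 to 1.08 UMIs against 0.359.

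**Figure D4:**
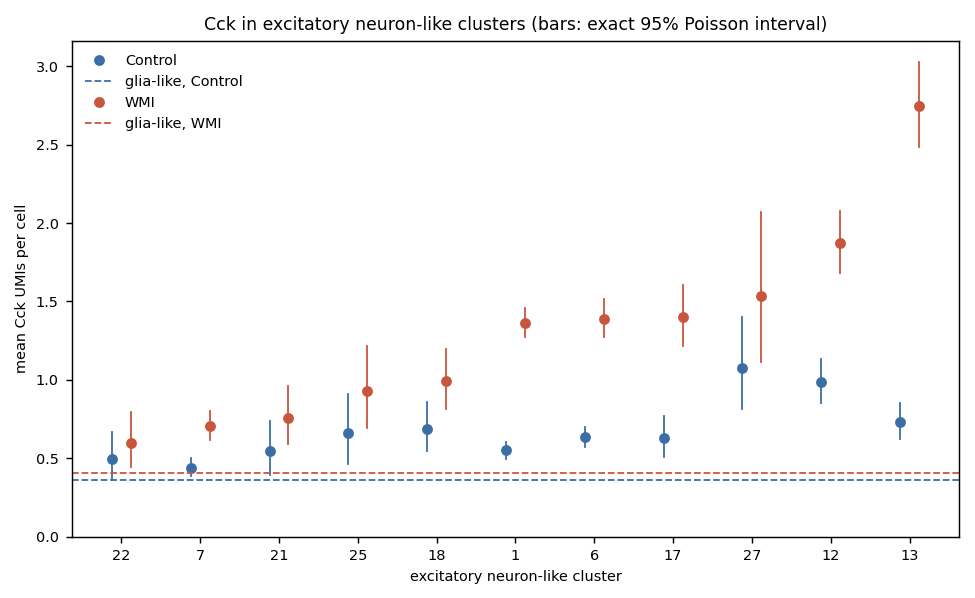
Mean *Cck* UMIs per cell in the 11 excitatory neuron-like clusters drawn from both libraries, by cluster number and ordered by the WMI level, 1 point per library with exact 95% Poisson intervals, and dashed lines for glia-like cells (0.359 in Control and 0.405 in WMI). The WMI point lay above the Control point in all 11, from 0.600 UMIs in the near-projecting cluster (22) to 2.75 in the *Tshz2*-led cluster (13).

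With both shallow clusters included the log2 ratio of *Cck* was 0.47, since these held *Cck* at 142 and 282 CPM in Control. In the 11 clusters 2 of the 9 genes, *Cck* and *Penk*, were called higher and none lower, where 4.06% of 19612 measured genes were called higher and 4.03% lower. *Penk* had 38 UMIs in Control and 100 in WMI (1.21 and 4.02 CPM, log2 1.73). In glia-like cells it was at 1.25 and 6.14 CPM (2.30, 1.27 to 3.50), so that in CPM the *Penk* level of excitatory cells was below the glial one in both libraries. *Sst* (log2 −0.12), *Npy* (0.072), *Vip* (−0.24) and *Crh* (0.11) had intervals that included 0, and each lay below its glial level in CPM in both libraries. *Tac1* had 44 UMIs in Control and 58 in WMI (0.73, 0.14 to 1.33). *Cort* had 118 and 59 (−0.67, −1.14 to −0.20), the opposite direction to interneuron-like cells. Both also lay below their glial levels in CPM. *Pdyn* had 74 and 85 UMIs (0.53, 0.07 to 1.00). It reached 20 UMIs in 2 clusters, upper-layer and *Rorb* cells, with log2 ratios of 1.39 to 1.41. Over the 11 clusters the median *Pdyn* level was 2.62 CPM in Control and 1.14 CPM in WMI, so the median cluster level did not go the same way. *Pdyn* thus stood higher in WMI in upper-layer and *Rorb* cells and lower in SST-type-like interneurons. The median depth of the 11 clusters' cells was 9974 UMIs in Control and 9773 in WMI, and their mitochondrial share 0.0419% and 0.362%.

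A cluster of 82 Control and 257 WMI cells held 7 of 8 striatal markers, and 1 of its 7 sub-clusters held enough of them to be called striatal-like. It consisted of 56 cells from the WMI library alone, with 7 of 8 markers that included *Ppp1r1b* and *Rgs9*. The other 6 sub-clusters, which held all 82 Control cells, stayed unnamed. No Control cell fell in the striatal-like sub-cluster, so no comparison can be made. *Penk* was at 194 CPM (158 to 236), its highest level in any class, from 99 UMIs in 34 of 56 cells with a highest cell of 9. *Tac1* was at 49.0 CPM from 25 UMIs in 9 cells and *Pdyn* at 11.8 CPM from 6 UMIs in 5 cells. Of the 56 cells 33 held UMIs of *Drd2* or *Adora2a* and none of *Drd1*, and these indirect-pathway markers went with 87 *Penk* UMIs in 26 cells and no *Tac1*. The 5 cells with *Drd1* alone held 9 *Tac1*, 4 *Pdyn* and 1 *Penk* UMI. No cell held both, and the 18 cells with neither held 11 *Penk* and 16 *Tac1* UMIs. Beside them, *Penk* in glia-like cells was 0.006 UMIs per cell in Control and 0.032 in WMI, and the part of the striatal-like cells in that was not tested. In fibroblast-like cells, which are known to make *Penk*, it was at 17.8 CPM in Control and 36.1 in WMI, from 6 and 14 UMIs.

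The machinery around the peptides was read from lists of receptors, processing and storage genes, other neuropeptides and immediate-early genes. In interneuron-like cells 12 of 12 processing and storage genes were measured and 12 lay above 0, with a median log2 ratio of 0.43, against −0.00 for all genes. Of them 2 were called higher and none lower, against the 3.71% called higher over all genes. *Vgf*, a granule protein made on neuronal activity, had 135 UMIs in Control and 212 in WMI (log2 1.02, 0.70 to 1.34), and *Qpct*, which caps peptides with pyroglutamate, at 3.28 and 11.04 CPM (1.75, 0.86 to 2.72). The granins *Scg2* (0.92) and *Chga* (0.65) and the convertase inhibitor *Pcsk1n* (0.97) were higher by less. In the 11 excitatory clusters the median of these genes was 0.28, 10 of 12 lay above 0 and none was called, with *Vgf* at 0.89 and *Pcsk1n* at 0.78. Over all genes of those clusters the median was −0.006, with 4.06% called higher and 4.03% lower.

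Receptor genes did not share one direction. Of 22 listed, 14 could be measured in interneuron-like cells, 3 were called higher and none lower, and the median was −0.02, where 3.71% of all genes were called higher and 2.6% lower. *Oprm1*, the μ-opioid receptor, was at 30.8 CPM in Control and 66.5 in WMI (1.11, 0.80 to 1.42). *Oprd1*, the δ-opioid receptor, was lower in WMI at 80.9 and 56.9 CPM (−0.51, −0.76 to −0.26), as was the PACAP receptor *Adcyap1r1* (−0.62). *Npy2r* (1.66) and *Vipr2* (1.81), named after their values were seen, were the other 2 that were called. In the 11 excitatory clusters 17 receptors were measured, 2 were called higher (*Tacr1* at 1.33 and *Npy2r* at 1.12, the latter named after its values were seen) and none lower, with a median of −0.18, where 4.06% and 4.03% of all genes were called. *Oprm1* there was at −0.25, so the higher level in WMI interneurons was not seen in those cells.

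Of 16 other neuropeptide genes 6 were measured in interneuron-like cells, and 2 were called higher and none lower, with a median of 0.58, beside 3.71% and 2.6% of all genes. *Tac2*, the neurokinin B precursor and a marker used to name VIP-type-like cells, was at 10.1 CPM in Control and 27.7 in WMI (1.46, 0.94 to 2.00). *Pnoc*, the nociceptin precursor, was at 12.5 and 28.9 CPM (1.21, 0.73 to 1.71). In the 11 excitatory clusters 8 were measured and 1 was called, the neurotensin precursor *Nts* (2.88), named after its values were seen, beside 4.06% of all genes called higher and 4.03% lower. The median there was 0.15. Immediate-early genes, which report recent activity, were measured in 3 of 7 cases in interneuron-like cells, with a median of −0.08 and none called. In the excitatory clusters 6 of 7 were measured, all 6 lay above 0 with a median of 0.47, and none was called.

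**Figure D5:**
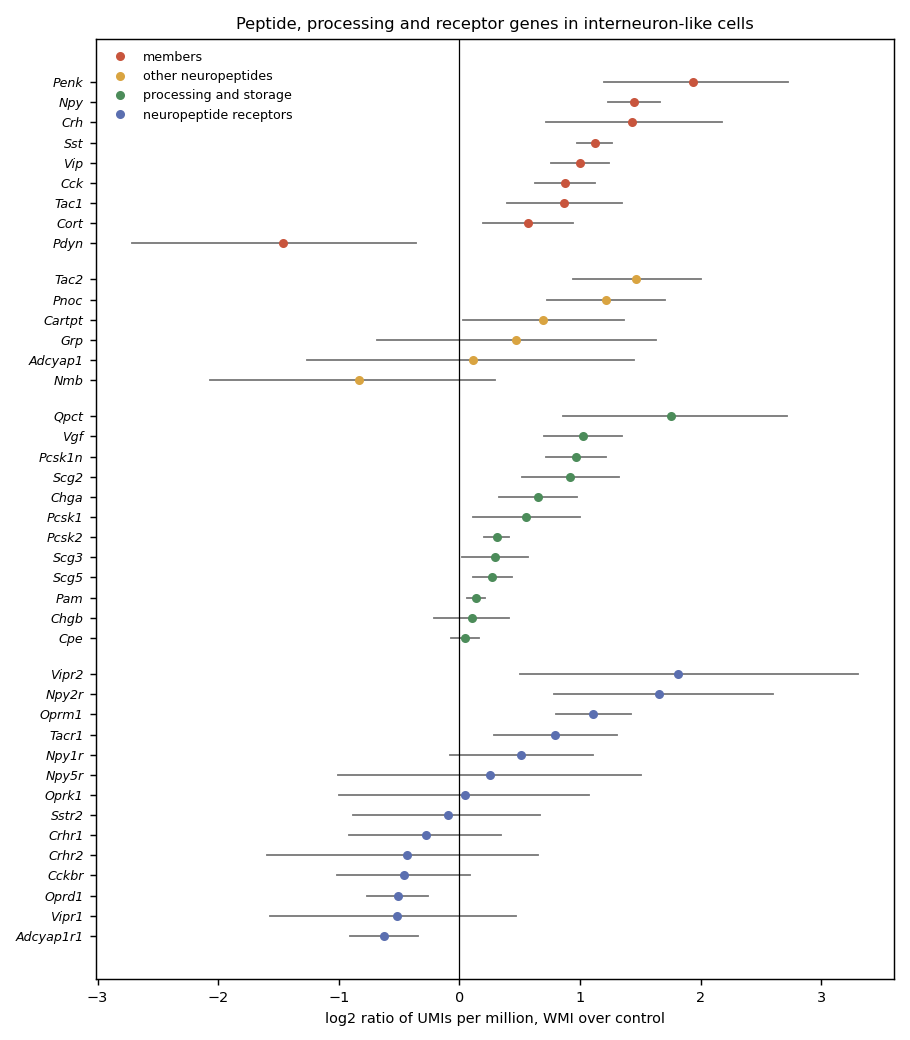
Log2 ratio of WMI over Control (CPM) in interneuron-like cells for the 9 members, other neuropeptides, processing and storage genes and receptors with at least 20 UMIs, with bars for exact 95% intervals of counting error. All 12 processing and storage genes lay above 0, while the 14 receptors had a median of −0.02.

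Genes with a profile most like each member were sought over 22 neuron-like clusters, by Pearson's r of log2(CPM + 1) with both libraries summed, among 13443 genes. The clusters share 2 libraries and differ in depth, so r is a description. For *Sst* the top 3 were *Lipa* (0.85), *Cort* (0.83) and *Crhbp* (0.82), so that the cortistatin gene ranked second. For *Crh* they were *Plpp4* (0.92), *Dlx1* (0.86) and *Vip* (0.83), and for *Vip* they were *Cp* (0.91), *Asic4* (0.91) and *Sall1* (0.89). *Crhbp*, *Cp* and *Dlx1* are genes of the interneuron clusters themselves. For *Cck* they were *Gpbp1* (0.79), *Yrdc* (0.78) and *Sult4a1* (0.77), for *Npy* they included *Thap2* (0.84) and *Rpl6* (0.84), and for *Cort* they were *1110004F10Rik* (0.88), *Creb3l2* (0.88) and *Gm31218* (0.87). For *Penk* they were *Meis1* (0.83), *Cftr* (0.83) and *Ston2* (0.79), for *Pdyn* *Prune2* (0.72), *Nrip1* (0.71) and *Lsm14a* (0.70), and for *Tac1* *Cand1* (0.82), *Ndufs1* (0.81) and *Myo5b* (0.80). The top r ran from 0.72 for *Pdyn* to 0.92 for *Crh*.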

How the data were processed

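The authors deposited 10x count matrices of UMIs per gene and barcode, made per the file headers with Cell Ranger 6.1.1. The labels name the build mm9, whereas all 55450 gene identifiers match GENCODE M21 on GRCm38, from which positions were taken. Seurat is named in the submitters' processing notes. How the count matrices were filtered is not given in the sources used here.

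Barcodes with at least 1000 UMIs, 500 genes and at most 10% mitochondrial UMIs were kept (748 Control and 241 WMI barcodes were left out), and 785 and 542 barcodes were removed as doublets by a nearest-neighbour score against simulated doublets, which recovered 471 and 445 of 500 added ones. Libraries were integrated in Seurat 5.3.0 (R 4.3.3) on 2000 variable genes, without the 9 members and the gene lists, with 30 components and a resolution of 0.8. A marker was held at 25% of its highest cluster level, in 10% of cells and at 3 times the lower quartile. The last condition was not applied to the excitatory, interneuron and striatal lists when clusters were named. To be named, a cluster had to hold 3 or more markers making up 50% of a list, or 60% for the excitatory, interneuron and striatal lists. Sub-clusters had to hold 3 or more markers making up 60% of a list. These thresholds were set after seeing the data. Of 31 clusters 4 stayed unnamed (163 Control and 2616 WMI cells).

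Counts were summed by library and cell class in Python 3.11.15 with numpy 2.4.6, scipy 1.17.1 and pandas 2.3.3. Levels are UMIs per 1000000 UMIs of the class (CPM) with exact Poisson intervals, shares have Clopper-Pearson intervals, and ratios have conditional binomial intervals. The ratio calculation was tested on simulated data. Ratios need 20 UMIs over both libraries, and called means a log2 ratio of at least 1 either way. An absent gene allows up to 3 UMIs per class, or for a level the exact upper bound of 0 counts. Named are the 9 members, list genes with at least 200 UMIs in neuron-like cells, and the 3 genes closest in profile, of which 1 is not reported here. The members and lists were chosen with earlier results of these data known. Alternatives were other filters, resolutions, scalings, background subtraction, thinning and subtype weights.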

Additional observations from a re-analysis of the deposited data

How the results depend on the processing

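No paired analysis was possible because each group holds 1 library, and both carry the same replicate number. For the same reason there was no replicate to leave out. In interneuron-like cells 119 of 134 alternatives left the ratios within the spread of the main value, 13 moved and 2 had the other sign. For excitatory cells these were 66, 20 and 5 of 91, for shares of cells 83, 7 and 0 of 90, for levels 21, 4 and 0 of 25, and for overlap within cells 19, 13 and 0 of 32. The cause of each shift was not tested unless stated.

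In interneuron-like cells the log2 ratio of *Sst* was 0.92 with doublets kept. With a looser cell filter and at resolution 1.6 the SST-type cells lost the interneuron name, and *Npy* was then at 0.69 and 0.69. Nearly all *Pdyn* UMIs lie in those cells, so the 2.35 and 2.35 of *Pdyn* rest on too few UMIs for a ratio by the rule of 20, have intervals that include 0, and do not reverse the result. With the interneuron list at 55%, a choice made after seeing the data, *Pdyn* was at −1.48 and −1.46, and *Sst* at 0.96 under the looser filter. Subtracting the microglia-like level in CPM gave *Sst* 1.75, *Npy* 2.58, *Vip* 1.47, *Pdyn* −2.80 and *Crh* 3.03. For *Crh* the level subtracted rests on 5 UMIs in Control and 0 in WMI. Subtracting the microglia-like level per cell, also chosen after seeing the data, gave *Npy* 1.68 and *Cck* 1.49. Equal subtype shares gave *Npy* 1.17 and *Vip* 0.58.

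In all excitatory clusters the looser filter gave *Sst* −0.63, *Npy* −0.38, *Cck* 0.60 and *Tac1* 0.37, and scaling to the median gene gave *Cck* 0.56. Subtraction per cell gave *Npy* 0.35 (reversed), *Vip* −0.38, *Cck* 1.27, *Penk* −0.35 (reversed) and *Crh* 6.37 (reversed), and subtraction of the level gave *Pdyn* −0.54. The subtracted *Crh* and *Penk* values rest on few UMIs. Microglia-like cells held 5 *Crh* UMIs in Control and 0 in WMI, so nothing was subtracted from *Crh* in WMI. They held 1 *Penk* UMI in Control and 5 in WMI. The mean of cell shares gave *Sst* −1.16, *Npy* −0.95, *Vip* −1.49, *Cck* 0.11, *Pdyn* −0.38 and *Tac1* −0.90. Without the clusters of 1 library, which are shallow Control cells, the values were *Sst* −0.12, *Npy* 0.072 (reversed), *Vip* −0.24, *Cck* 1.04, *Pdyn* 0.53, *Tac1* 0.73, *Crh* 0.11 (reversed) and *Cort* −0.67.

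For shares of interneuron-like cells the WMI minus Control difference without thinning was 8.33 percentage points for *Cck*, 5.76 for *Penk*, −3.08 for *Pdyn* and 3.27 for *Tac1*. At 2 UMIs or more it was 0.37 for *Cck*. Thinned to 2000 UMIs it was 4.23 for *Tac1* and 3.51 for *Cort*. Subtracting the microglia-like level left 643 CPM of *Sst* and 202 CPM of *Npy* in SST-type-like cells and 152 CPM of *Cck* in CGE-like cells, the last at 210 when subtracted per cell.

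Overlap depended on thinning by construction, since deeper cells hold more genes. Without thinning *Npy* was in 33.9% of *Sst*-positive Control cells, *Sst* in 49.2% of *Npy*-positive and *Cck* in 32.9% of *Vip*-positive ones. In WMI cells *Sst*-positive cells then held *Npy* in 43.7%, *Cort* in 22.8% and *Tac1* in 12.03%, and *Vip*-positive cells held *Npy* in 22.7%, *Crh* in 22.7%, *Penk* in 33.3% and *Cck* in 42.4%. With at least 3 UMIs in Control these were 17.6% for *Npy* and 0% for *Tac1* among *Sst*-positive cells, and 40.9% for *Sst* among *Npy*-positive cells. The sparse members are limited by depth, with 9 to 62 UMIs of *Penk*, *Pdyn* and *Crh* in the interneuron-like cells of each library.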

Other observations

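Cells that no marker list named also held peptide UMIs. A WMI sub-cluster of 29 cells led by *B020031H02Rik* and *Foxp2*, with no Control cell, had *Penk* at 89.2 CPM (24 UMIs) and *Pdyn* at 14.9 CPM (4 UMIs) but no *Tac1* UMI. Another of 52 WMI cells, led by *Baiap3* and again without Control cells, had *Sst* at 91.8 CPM (45 UMIs), *Npy* at 69.4 CPM (34 UMIs) and *Cck* at 135 CPM (66 UMIs). It also held 19 *Penk* UMIs. An unnamed cluster of 505 cells, 455 of them from WMI, was led by *Gm32647* and had *Cck* at 0.897 UMIs per WMI cell.

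Counts per cell in unlike cells lay close together. A cluster rich in mitochondrial RNA and a myeloid-gene cluster, both mostly from WMI and with median depths of 1945.5 and 2943.5 UMIs, had 0.210 and 0.174 *Sst* UMIs per WMI cell. These are near the 0.191 of WMI glia-like cells. In CPM the same counts were 101.9 and 52.7, against 37.1 in glia-like cells, so that the scale alone changed their order. The same pair had 0.484 and 0.431 *Cck* UMIs per WMI cell, against 0.405 in glia-like cells.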
